A study of Mus musculus with 8 samples.

Results

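The 35 genes described here encode enzymes and regulators of sterol and fatty acid synthesis in the mouse. They were taken by name from a table of 57010 genes, and all 35 had enough counts to be tested, as did 17976 genes in all. They fall into 8 genes of the mevalonate pathway, 11 of the sterol steps, 6 regulators around the SREBP proteins and 10 of fatty acid synthesis and desaturation. The 19 genes of the mevalonate pathway and sterol steps together are called the sterol arm below, and the last 10 the fatty acid arm.

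RNA from mouse embryonic stem cells was sequenced in 4 groups of 2 libraries. They are labelled HSVTK GANC (HSVTK cells given ganciclovir), HSVTK DMSO (HSVTK cells given the solvent DMSO), Control GANC (control cells given ganciclovir) and Control DMSO (control cells given DMSO). HSVTK stands for a viral thymidine kinase (herpes simplex) whose product makes ganciclovir toxic to the cell that holds it, and in the reporter line it is placed under a driver meant for the rare 2-cell-like state of these cultures. The labels state neither strain, clone, ganciclovir dose and duration, nor what the control cells carry, and they do not say that replicates were separate cultures, so the p-values below measure only the spread between libraries.

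Cells make cholesterol from acetyl-CoA through mevalonate and isoprenoid diphosphates to squalene, which is closed into lanosterol and trimmed to cholesterol. Fatty acids are built from the same acetyl-CoA by carboxylation, chain assembly, elongation and desaturation. When sterols are scarce, SCAP carries SREBP proteins from the endoplasmic reticulum to the Golgi, where cleavage frees a transcription factor that acts on genes of both branches, and INSIG proteins hold SCAP back when sterols are plentiful.

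Total counts ran between 29704460 and 34184475 per library. Stem cell markers were high everywhere, summing over 10 genes to 5810 and 5950 CPM (counts scaled to library size by the TMM method) in HSVTK GANC, 6650 and 6750 in HSVTK DMSO, 5650 and 5920 in Control GANC, and 5400 and 5330 in Control DMSO. Markers of the 2-cell-like state summed highest in the libraries labelled HSVTK GANC, where ganciclovir is meant to be toxic to cells in that state. Their sum over 10 genes was 77.6 and 80.7 CPM there, against 39.3 and 37.9 in HSVTK DMSO. It was 36.4 and 30.8 in Control GANC and 36.3 and 38.9 in Control DMSO. The labels give no expected level of these markers, and neither the reason nor the labels were tested. Group names below are therefore the labels' names, and every direction rests on them. The libraries labelled HSVTK GANC also had the highest share of mitochondrial counts, 3.56% and 3.45%, against at most 3.17% in the other libraries.

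Measured per gene length, as FPKM (fragments scaled to gene length and library total, mean of the 8 libraries), Scd2, a desaturase that makes monounsaturated fatty acids, was the most abundant member at 113 FPKM. Acly, which makes cytosolic acetyl-CoA from citrate, followed at 84.7 FPKM, and Fdps, which makes farnesyl diphosphate, at 45.2 FPKM. Acss2, which makes acetyl-CoA from acetate, at 0.763 FPKM and Acat3, a close relative and chromosomal neighbour of the thiolase gene Acat2, at 0.578 FPKM were the lowest. Acat3 rested on 24 to 70 counts per library, and reads shared with Acat2 or with overlapping Tcp1 make it uncertain.

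Promoter sequence was matched in a RefSeq table of build GRCm38.p6 for 27 of the 35 genes, covering 250 bases before to 50 after each start. The NF-Y box CCAAT, bound by a factor known to act beside SREBP proteins, was found on either strand in 22 of the 27 genes (81.5%), against 41.1% of 27025 genes in the table. It lay in 9 of 9 matched genes of the sterol steps, 5 of 6 of the mevalonate pathway, 4 of 5 regulators and 4 of 7 of the fatty acid arm. The sterol regulatory element in the form TCACNCCAC was found in 1 of the 27, Hmgcs1, against 1.44% of all genes, and the E-box CACGTG in 5 of the 27 (18.5%), against 8.09%. These are matches of letters, not measured binding. The 150 bases before the start are shown for 6 genes on which the text below turns: 3 enzymes of the sterol arm, a pair of regulators, and the fatty acid synthase, which moved otherwise. Capitals mark NF-Y boxes, read as CCAAT or its reverse complement ATTGG, and in Hmgcs1 also the sterol regulatory element.
Hmgcs1, chr13:119690201-119690350, plus strand: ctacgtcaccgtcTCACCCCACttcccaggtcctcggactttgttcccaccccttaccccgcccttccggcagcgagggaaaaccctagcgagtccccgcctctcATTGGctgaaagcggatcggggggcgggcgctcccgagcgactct
Cyp51, chr5:4104698-4104847, minus strand: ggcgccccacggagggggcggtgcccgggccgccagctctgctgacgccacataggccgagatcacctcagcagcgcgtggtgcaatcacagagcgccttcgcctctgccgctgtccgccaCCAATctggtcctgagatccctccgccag
Msmo1, chr8:64733579-64733728, minus strand: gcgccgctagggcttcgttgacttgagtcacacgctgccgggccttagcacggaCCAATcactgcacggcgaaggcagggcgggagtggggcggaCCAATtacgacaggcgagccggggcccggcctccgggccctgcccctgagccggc
Srebf2, chr15:82147119-82147268, plus strand: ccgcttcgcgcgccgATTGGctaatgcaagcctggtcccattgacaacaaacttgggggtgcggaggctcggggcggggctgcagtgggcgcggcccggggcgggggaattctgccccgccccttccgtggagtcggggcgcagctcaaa
Insig1, chr5:28071262-28071411, plus strand: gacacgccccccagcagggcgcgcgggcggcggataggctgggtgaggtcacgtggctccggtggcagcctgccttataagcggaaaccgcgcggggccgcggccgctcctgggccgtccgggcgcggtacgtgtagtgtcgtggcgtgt
Fasn, chr11:120824548-120824697, minus strand: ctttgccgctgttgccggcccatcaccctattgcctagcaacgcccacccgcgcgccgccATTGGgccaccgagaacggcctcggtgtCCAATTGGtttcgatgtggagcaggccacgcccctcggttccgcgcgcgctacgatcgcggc

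With ganciclovir in HSVTK cells, most sterol and fatty acid genes were lower. Of the 35 genes, 25 fell and 2 rose in the libraries labelled HSVTK GANC against HSVTK DMSO (edgeR quasi-likelihood test, adjusted p under 0.05 with Benjamini-Hochberg adjustment over all tested genes). Over all tested genes 15.2% fell and 13.3% rose. The median log2 fold change of the 35 was -0.46, against 0.01 for all tested genes. In bulk RNA, fewer cells of a type and less RNA per cell cannot be told apart.

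**Figure D1:**
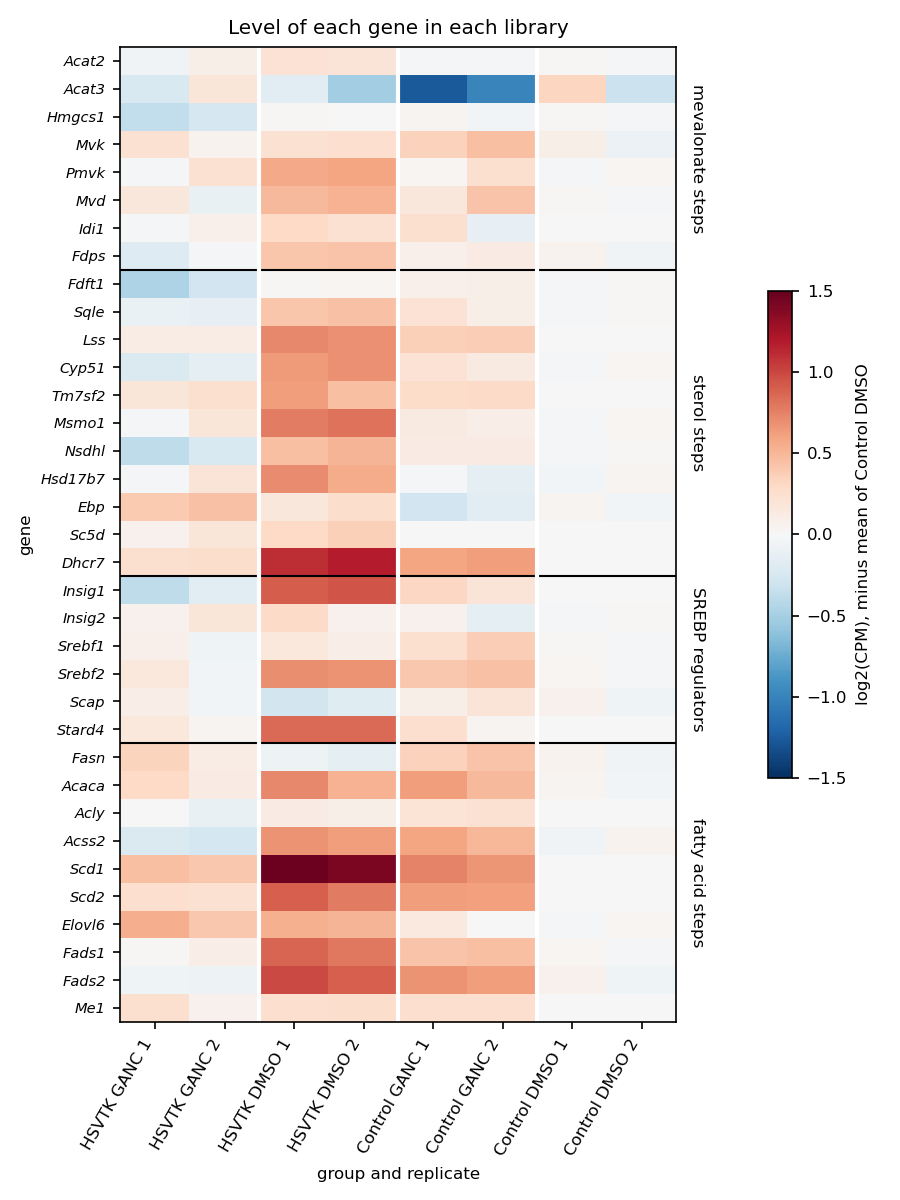
Level of each of the 35 genes (rows, grouped by role) in each of the 8 libraries (columns), as log2 CPM relative to the mean of the Control DMSO libraries. Of the 35 genes, 21 were highest in both HSVTK DMSO libraries. The share of all tested genes with this pattern was not counted, so the count is a description only.

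The regulators held the largest fall. Insig1, which retains SCAP in the endoplasmic reticulum and is itself an SREBP target, had 75.8 and 88.9 CPM in HSVTK GANC, against 185 and 190 CPM in HSVTK DMSO. Its libraries did not overlap, and the log2 fold change was -1.18 ± 0.07 (SE, edgeR adjusted p = 5.21e-13). Srebf2, which encodes the SREBP protein most tied to sterol genes, had 210 and 183 CPM in HSVTK GANC and 304 and 299 CPM in HSVTK DMSO, a log2 fold change of -0.62 ± 0.06 (edgeR adjusted p = 1.49e-08). Stard4, a cytosolic sterol carrier, fell by 0.75 on the log2 scale. Scap was 1 of the 2 genes that rose, with 33.9 and 30.9 CPM in HSVTK GANC and 26.1 and 27.9 CPM in HSVTK DMSO, a log2 fold change of 0.26 ± 0.09 (edgeR adjusted p = 0.0313) that DESeq2 did not call. Srebf1, whose products act more on fatty acid genes, gave -0.12 ± 0.08 and Insig2 gave -0.05 ± 0.11, both short of the threshold.

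In the mevalonate pathway 6 of 8 genes fell, with a median of -0.28, and 0 rose by edgeR, by DESeq2 or at an unadjusted p under 0.05. Hmgcs1, which makes HMG-CoA, had 167 and 181 CPM in HSVTK GANC and 219 and 217 CPM in HSVTK DMSO, a log2 fold change of -0.33 ± 0.06. Fdps fell by 0.53, Mvd, the mevalonate diphosphate decarboxylase, by 0.47 and Pmvk, the phosphomevalonate kinase, by 0.46. Idi1, which isomerises isopentenyl diphosphate, fell by 0.24 and Acat2 by 0.18, and the Acat2 call was lost under 9 of 16 other settings. Mvk, the mevalonate kinase, gave -0.10 ± 0.09 and Acat3 gave 0.32 ± 0.34, with overlapping libraries in both.

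In the sterol steps 9 of 11 genes fell, with a median of -0.54. By edgeR with TMM scaling or by DESeq2 0 rose, with 1, Ebp, at an unadjusted p under 0.05. Cyp51, which removes the first methyl group of lanosterol, had 86.1 and 91.5 CPM in HSVTK GANC and 156 and 161 CPM in HSVTK DMSO, a log2 fold change of -0.84 ± 0.06 (edgeR adjusted p = 1.15e-10). Dhcr7, which carries out the last reduction to cholesterol, had 33.3 and 34.0 CPM in HSVTK GANC and 61.2 and 64.1 CPM in HSVTK DMSO, a log2 fold change of -0.90 ± 0.08 (edgeR adjusted p = 1.33e-09). Both genes were clearly separated between the groups. Nsdhl fell by 0.78 and Msmo1 by 0.70, both acting in removal of the next methyl groups. Lss, which closes the sterol rings, fell by 0.59, Sqle, the squalene epoxidase, by 0.54 and Fdft1, the squalene synthase, by 0.40. Hsd17b7 fell by 0.54 and Tm7sf2 by 0.33, both reductases of the pathway. Ebp, a sterol isomerase, stood apart with 49.5 and 50.9 CPM in HSVTK GANC and 42.5 and 45.4 CPM in HSVTK DMSO, a log2 fold change of 0.19 ± 0.08 that missed the threshold (edgeR adjusted p = 0.0817). Under 3 of 16 other settings, library size scaling and limma on log2 FPKM in both forms, it was called higher. Sc5d, the lathosterol desaturase, gave -0.20 ± 0.09.

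In the fatty acid arm 7 of 10 genes fell and 1 rose, with a median of -0.51. Scd1 and Fads2 had the largest changes of the arm. Scd1, a stearoyl-CoA desaturase, had 74.1 and 72.0 CPM in HSVTK GANC and 151 and 145 CPM in HSVTK DMSO, a log2 fold change of -1.02 ± 0.07 (edgeR adjusted p = 2.99e-12). Fads2, which desaturates polyunsaturated fatty acids, had 33.5 and 33.2 CPM in HSVTK GANC and 69.3 and 64.9 CPM in HSVTK DMSO, a log2 fold change of -1.01 ± 0.08. With Insig1, these were the 3 of 35 genes called with at least a 2-fold change. Fads1, beside Fads2 on the chromosome, fell by 0.77 and Scd2 by 0.60. Among enzymes of acetyl-CoA and malonyl-CoA supply, Acss2 fell by 0.90, Acaca, the acetyl-CoA carboxylase, by 0.41 and Acly by 0.17. Fasn, the fatty acid synthase itself, rose instead, with 422 and 360 CPM in HSVTK GANC and 317 and 301 CPM in HSVTK DMSO, a log2 fold change of 0.34 ± 0.06 (edgeR adjusted p = 0.000195). Elovl6, an elongase, gave -0.05 ± 0.07 and Me1, which supplies NADPH, -0.11 ± 0.09.

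**Figure D2:**
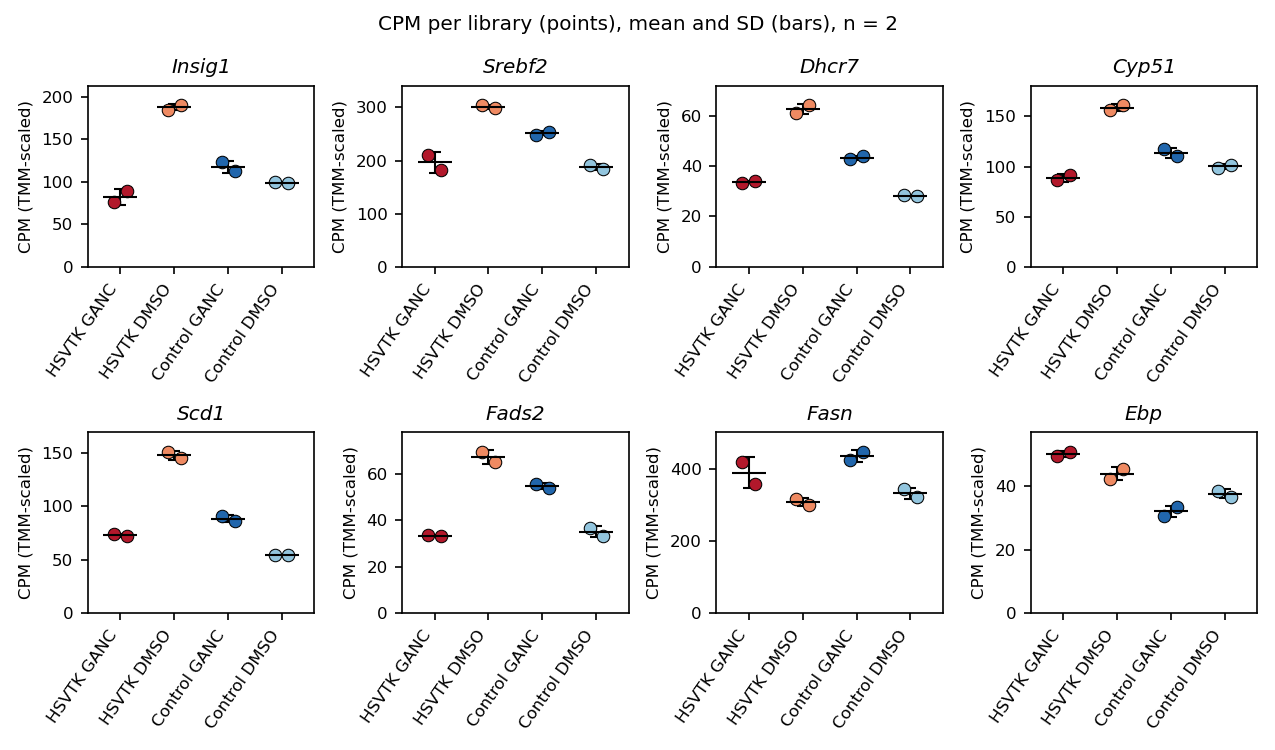
CPM of selected genes in each library (points) by group, with the mean and SD of each group as bars and the y axis starting at 0. HSVTK DMSO holds the highest values of Insig1 (185 and 190 CPM) and Scd1 (151 and 145 CPM), but not of Fasn (317 and 301 CPM).

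Other marker lists are read against the 28.5% of all tested genes called in the same comparison. The share called was 77.8% of tested 2-cell-like markers and 50% of stem cell markers. It was 28.6% for trophectoderm, 25% for primitive endoderm, 25% for neuroectoderm and 20% for fibroblast markers, near or below that of all genes. Of 9 tested markers of the 2-cell-like state 7 rose. Of 7 tested trophectoderm markers 2 fell, while 4 of the 7 lay above 0 and the median was 0.19. Their sum over 8 genes was 25.4 and 24.9 CPM in HSVTK GANC, against 46.5 and 47.0 in HSVTK DMSO. Most of it was Tfap2c, at 18.4 and 18.2 CPM against 36.3 and 37.6. Of 10 stem cell markers 5 fell. Of 5 tested fibroblast markers 1 fell, and the sum over 10 genes was 21.8 and 22.7 CPM in HSVTK GANC and 22.9 and 26.3 in HSVTK DMSO, most of it Thy1, at 15.1 and 17.1 CPM against 15.1 and 15.7. Of 8 tested primitive endoderm markers 2 rose, while 5 of the 8 lay below 0 and the median was -0.21. Their sum over 10 genes, 79.8 and 72.8 CPM in HSVTK GANC and 66.0 and 60.5 in HSVTK DMSO, was mostly Lama1, at 71.3 and 64.3 CPM against 56.1 and 52.2. Of 4 tested neuroectoderm markers 1 rose, with 2 above and 2 below 0. Their sum over 6 genes, 156 and 146 CPM in HSVTK GANC and 130 and 121 in HSVTK DMSO, was mostly Tubb3, at 137 and 129 CPM against 108 and 102. The part of these markers in the sterol and fatty acid values was not tested. Of the 22 genes with an NF-Y box 15 fell, as did 3 of the 5 matched without one, Acat2, Acaca and Fads2. Insig1 and Fasn are both among the 22. In the 150 bases shown above Fasn has 3 boxes and Insig1 has 0, its box lying further off, 216 bases before the start. Whether the number or place of boxes goes with the change was not tested.

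In Control cells most called genes were higher with ganciclovir, 8 of them in the fatty acid arm. Of the 35 genes, 15 rose and 1 fell in Control GANC against Control DMSO, where 4.73% of all tested genes rose and 3.35% fell. The median of the 35 was 0.18. The count of 16 was less stable than the others: it was 10 without Control DMSO replicate 1 and also 10 without replicate 2, and 6 or 7 with limma on log2 FPKM. The calls on Dhcr7, Srebf2, Scd1, Scd2, Fads1 and Fads2 held under every setting run.

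In the fatty acid arm 8 of 10 genes rose, with a median of 0.49. Scd1 had 91.1 and 86.0 CPM in Control GANC and 54.2 and 54.4 CPM in Control DMSO, a log2 fold change of 0.71 ± 0.07 (edgeR adjusted p = 1.07e-07). Scd2 had 690 and 687 CPM in Control GANC and 449 and 448 CPM in Control DMSO, a log2 fold change of 0.62 ± 0.05. Neither gene's groups overlapped. Fads2 rose by 0.65, Acaca by 0.56, Acss2 by 0.55, Fads1 by 0.44, Fasn by 0.39 and Acly by 0.22 on the log2 scale. Elovl6 at 0.07 ± 0.07 and Me1 at 0.25 ± 0.09 did not pass.

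Among the regulators 3 of 6 rose. Srebf2 had 249 and 254 CPM in Control GANC and 192 and 184 CPM in Control DMSO, a log2 fold change of 0.42 ± 0.06 (edgeR adjusted p = 0.000107). Insig1 had 123 and 113 CPM in Control GANC and 99.4 and 98.4 CPM in Control DMSO, a log2 fold change of 0.26 ± 0.07, and Srebf1 rose by 0.30. In the sterol arm 4 of 19 rose and 1 fell, with a median of 0.11. Dhcr7 had 42.8 and 43.8 CPM in Control GANC and 28.4 and 28.2 CPM in Control DMSO, a log2 fold change of 0.61 ± 0.08. Mvk rose by 0.40, Lss by 0.37 and Mvd by 0.30, and the Mvd call (edgeR adjusted p = 0.0477) was lost under 10 of 16 other settings, DESeq2 and the replicate block among them. Acat3 fell, with 0.714 and 0.862 CPM in Control GANC and 2.15 and 1.37 CPM in Control DMSO (edgeR adjusted p = 0.0462), on few counts, and its call was lost under 9 of 15 other settings, the replicate block among them. Hmgcs1 had 222 and 210 CPM in Control GANC and 218 and 214 CPM in Control DMSO, with overlapping libraries. In this comparison 3 of 10 stem cell markers and 2 of 5 tested fibroblast markers rose and 1 of 4 tested neuroectoderm markers fell, and the part of this in the values was not tested.

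The responses to ganciclovir of HSVTK and Control cells, which share no library, were compared by the difference of the log2 fold changes, HSVTK minus Control. It was below 0 for 26 of the 35 genes and above 0 for 2 at the same threshold, where 14.0% of all tested genes were below and 11.6% above. The median difference was -0.61 over the 35, -0.41 in the mevalonate pathway, -0.69 in the sterol steps, -0.66 among the regulators and -1.09 in the fatty acid arm. Scd1 had a difference of -1.73 ± 0.10, Fads2 of -1.66 ± 0.11, Dhcr7 of -1.51 ± 0.11 and Insig1 of -1.44 ± 0.10. The genes above 0 were Acat3 at 1.49 ± 0.50 and Ebp at 0.42 ± 0.12 (edgeR adjusted p = 0.0282 and 0.0082).

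Of the 35 genes, 12 passed the test in both kinds of cell with opposite direction: with ganciclovir they were lower in HSVTK cells and, by label, higher in Control cells. They were Mvd, Lss, Dhcr7, Insig1, Srebf2, Acaca, Acly, Acss2, Scd1, Scd2, Fads1 and Fads2, that is 7 of 10 genes of the fatty acid arm and 3 of 19 of the sterol arm. Over all tested genes 15.2% fell in HSVTK cells and 4.73% rose in Control cells. The share that did both was not counted and cannot exceed 4.73%. Both calls held under every setting run for 6 of the 12, Dhcr7, Srebf2, Scd1, Scd2, Fads1 and Fads2, that is 4 of 10 and 1 of 19. Were the labels HSVTK GANC and HSVTK DMSO exchanged, the HSVTK signs would turn. The 12 would be higher with ganciclovir in both kinds of cell, and Fasn would be the gene with opposite directions. The differences of responses, and the comparisons of HSVTK with Control cells below, would then rest on exchanged libraries. Their values in that case were not computed, so those results hold only for the labels as given. Fasn was the 1 gene that rose in both, and its difference of -0.05 ± 0.09 did not pass (edgeR adjusted p = 0.757).  Another 13 genes fell in HSVTK cells and were not called in Control cells, among them Cyp51, whose difference was -1.01 ± 0.09. The share of all tested genes with this pattern was not counted, so the 13 are a description only. A gene not called may still have moved: Cyp51 gave 0.18 ± 0.06 in Control cells (edgeR adjusted p = 0.0939), with libraries that did not overlap.

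**Figure D3:**
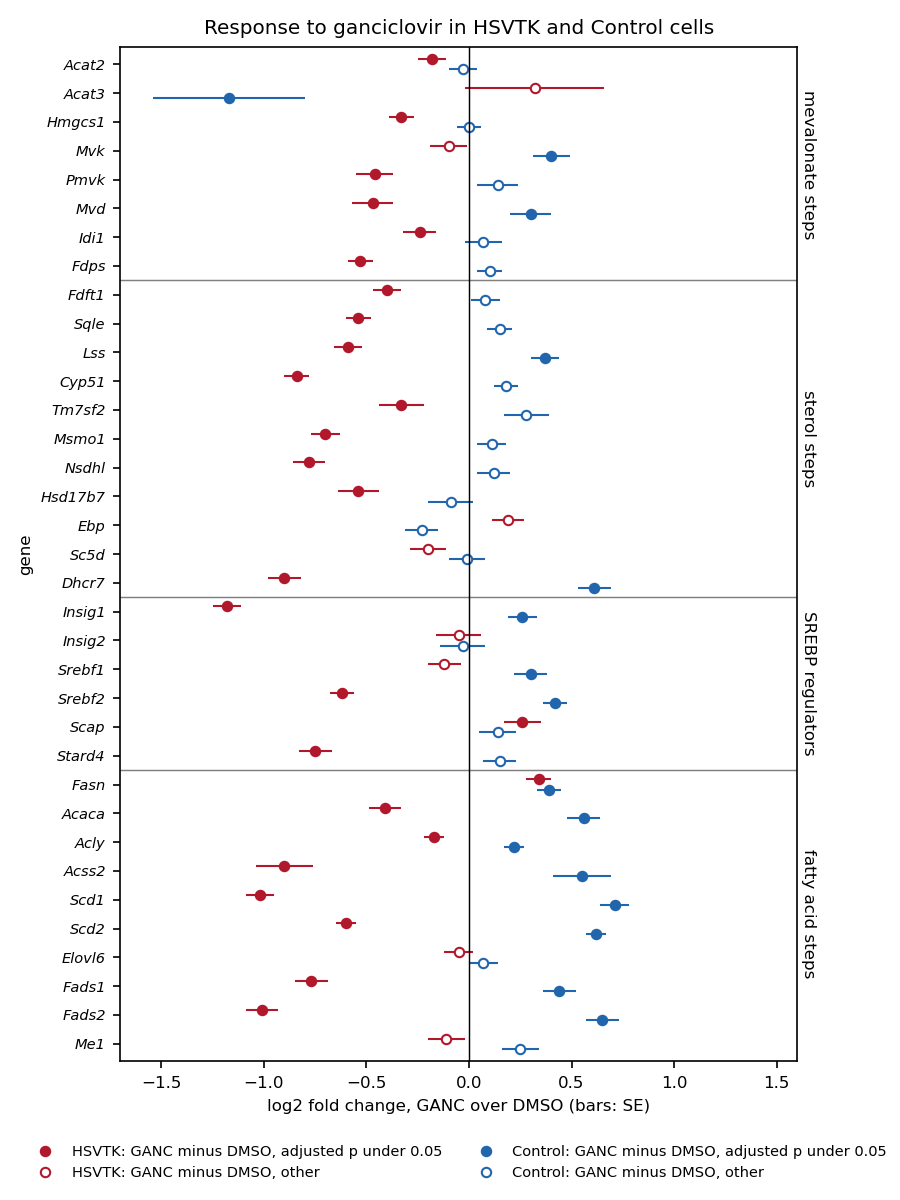
Log2 fold change of each of the 35 genes (rows, by role) with ganciclovir, in HSVTK cells (red) and in Control cells (blue), with bars of 1 SE and filled points for adjusted p under 0.05. For 12 genes the filled points lie on opposite sides of 0, and for Fasn both lie above it.

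Without ganciclovir, by label, HSVTK cells had the higher levels. Of the 35 genes, 26 were higher and 0 lower in HSVTK DMSO against Control DMSO by edgeR, where 16.4% of all tested genes were higher and 17.3% lower. DESeq2 also called 26 higher and 0 lower, and 1 gene, Scap, was lower at an unadjusted p under 0.05. With edgeR on the compared libraries alone, 28 were higher and 2, Scap and Fasn, were lower. The median was 0.50. This comparison shares the HSVTK DMSO libraries with the ganciclovir comparison in HSVTK cells and the Control DMSO libraries with that in Control cells, so their values are not separate evidence. Scd1 had 151 and 145 CPM in HSVTK DMSO and 54.2 and 54.4 CPM in Control DMSO, a log2 fold change of 1.45 ± 0.07 (edgeR adjusted p = 1.22e-15). Dhcr7 had 61.2 and 64.1 CPM in HSVTK DMSO and 28.4 and 28.2 CPM in Control DMSO, a log2 fold change of 1.15 ± 0.08. Insig1 was higher by 0.92, Stard4 by 0.85, Msmo1 by 0.79 and Elovl6 by 0.52. By role, 5 of 8 mevalonate genes, 10 of 11 genes of the sterol steps, 3 of 6 regulators and 8 of 10 genes of the fatty acid arm were higher. Hmgcs1 at 0.01 ± 0.06, Fdft1 at 0.02 ± 0.07 and Fasn at -0.11 ± 0.06 did not pass. Of 10 stem cell markers 7 were higher in HSVTK DMSO, as were 1 of 9 tested markers of the 2-cell-like state, 3 of 8 tested primitive endoderm markers and 2 of 5 tested fibroblast markers, and 1 of 4 tested neuroectoderm markers was lower. The primitive endoderm sum was 66.0 and 60.5 CPM in HSVTK DMSO and 42.8 and 40.7 in Control DMSO. Most of it was Lama1, at 56.1 and 52.2 CPM against 37.0 and 36.3, and 2 of the 8 tested markers lay below 0. The fibroblast sum was 22.9 and 26.3 CPM in HSVTK DMSO and 11.4 and 12.6 in Control DMSO. Most of this sum was Thy1, at 15.1 and 15.7 CPM against 7.88 and 7.76, and 1 of the 5 tested markers lay below 0. The part of these markers in the values was not tested.

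With ganciclovir in both, most genes were lower in the HSVTK libraries. Of the 35 genes, 20 were lower and 3 higher in the libraries labelled HSVTK GANC against Control GANC, where 14.9% of all tested genes were lower and 11.1% higher. The median was -0.26. Over all tested genes 2004 were higher and 2681 lower, and scaling by library size alone gave 2579 higher and 2190 lower. Fads2 had 33.5 and 33.2 CPM in HSVTK GANC and 55.6 and 53.9 CPM in Control GANC, a log2 fold change of -0.72 ± 0.08 (edgeR adjusted p = 7.19e-08). Acss2 had a log2 fold change of -0.79, Insig1 of -0.52, Fdft1 of -0.46 and Nsdhl of -0.42. Ebp was higher, with 49.5 and 50.9 CPM in HSVTK GANC and 30.8 and 33.4 CPM in Control GANC, a log2 fold change of 0.64 ± 0.08. Elovl6 was higher with 0.40 ± 0.07 and Acat3 with 1.11 ± 0.37. In this comparison 8 of 9 tested markers of the 2-cell-like state were higher, as were 5 of 8 tested primitive endoderm markers (median 1.31, all 8 above 0) and 2 of 5 tested fibroblast markers. Of 7 tested trophectoderm markers 3 were lower and 1 higher, of 10 stem cell markers 3 were higher and 1 lower, and of 4 tested neuroectoderm markers 1 was higher and 1 lower. The primitive endoderm sum was 79.8 and 72.8 CPM in HSVTK GANC and 42.8 and 47.9 in Control GANC, mostly Lama1, at 71.3 and 64.3 CPM against 38.9 and 44.6. The trophectoderm sum was 25.4 and 24.9 CPM in HSVTK GANC and 46.3 and 47.6 in Control GANC. It was mostly Tfap2c, at 18.4 and 18.2 CPM against 37.1 and 37.6. The part of these markers in the values was not tested.

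The arms were also summed up per library. The mean log2 CPM of the sterol arm, relative to the mean of Control DMSO, was -0.04 and 0.05 in HSVTK GANC, 0.42 and 0.40 in HSVTK DMSO, 0.07 and 0.08 in Control GANC, and 0.02 and -0.02 in Control DMSO. For the fatty acid arm it was 0.18 and 0.10 in HSVTK GANC, 0.65 and 0.57 in HSVTK DMSO, 0.46 and 0.42 in Control GANC, and 0.01 and -0.01 in Control DMSO. For the regulators it was 0.03 and -0.01 in HSVTK GANC, 0.44 and 0.40 in HSVTK DMSO, 0.23 and 0.18 in Control GANC, and 0.02 and -0.02 in Control DMSO. In each arm both HSVTK DMSO libraries were the highest of the 8. The sterol arm mean in Control GANC includes Acat3, whose log2 fold change there was -1.17 on few counts. The mevalonate genes, Acat3 among them, lay at -0.04 and 0.01 in Control GANC, and the sterol steps alone at 0.15 and 0.13. All these means describe the lists and carry no test.

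**Figure D4:**
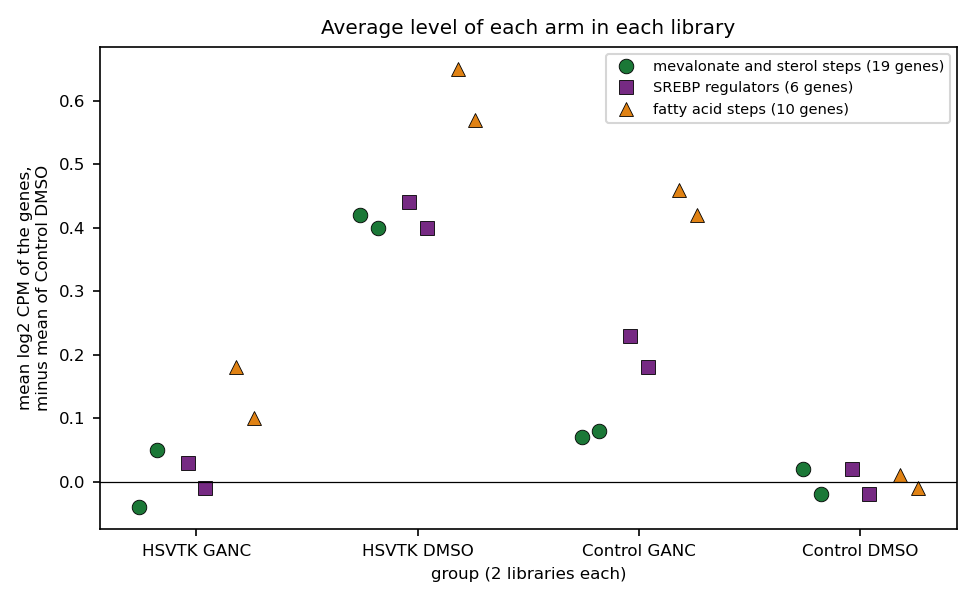
Mean log2 CPM of each arm relative to the mean of Control DMSO, 1 point per library, by group. The fatty acid arm lies at 0.46 and 0.42 in Control GANC and the sterol arm at 0.07 and 0.08. The sterol arm includes Acat3, which fell in Control GANC on few counts.

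In neighbouring pathways the counts called in HSVTK cells with ganciclovir are read against the 15.2% of all tested genes that fell and the 13.3% that rose, and a share near these is no result about a pathway. Of 23 tested further genes of fatty acid synthesis, 6 fell and 1 rose (median -0.13). Acsl3, which activates fatty acids, fell by 0.83, and Slc25a1, which exports citrate from mitochondria, by 0.62, while Hacd2, of the elongation cycle, rose by 0.57. Of 9 further SREBP processing and target genes, 3 fell (median -0.14), among them Rdh11 by 0.76 and Mbtps2, a protease that frees SREBP, by 0.39. Of 10 genes of the nonsterol isoprenoid branches, 3 fell (median -0.10), led by Ggps1, which makes geranylgeranyl diphosphate, at -0.43 ± 0.09. Of 12 tested genes of fatty acid oxidation, 3 fell and 1 rose (median 0.02), with Cpt1a, the entry step into mitochondria, at -0.49 ± 0.08.

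Genes of LXR signalling and cholesterol efflux were split, with 3 of 10 tested higher and 3 lower. Abca1, which exports cholesterol, had 17.1 and 16.1 CPM in HSVTK GANC and 8.69 and 8.79 CPM in HSVTK DMSO, a log2 fold change of 0.92 ± 0.11. Apoe, a lipoprotein component, had 375 and 359 CPM in HSVTK GANC and 219 and 243 CPM in HSVTK DMSO, a log2 fold change of 0.67 ± 0.06. Abcg1, a sterol exporter like Abca1, fell instead, with a log2 fold change of -0.79 ± 0.13. Soat1, which esterifies cholesterol, fell by 0.69. In Control cells Apoe fell with ganciclovir, with a log2 fold change of -0.47 ± 0.06, and its difference between the cells was 1.14 ± 0.09 (edgeR adjusted p = 2.64e-10).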

How the data were processed

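RNA-seq of 8 libraries in 4 groups was used. Per the submitters' processing notes, the authors' tools were DESeq2 1.40.2, featureCounts 2.0.1, HISAT2 2.1.0 and fastp 0.23.2, with build GRCm39. Sources used here give neither parameters nor the strand setting. The deposited values are raw counts per gene and the authors' FPKM; 456080 of 456080 FPKM values equalled counts per length and total within 1e-05. The deposited gene length, another column, served that check alone.

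Counts were tested with edgeR 4.0.16 (TMM scaling, filterByExpr, quasi-likelihood F test, mean per group over all 8 libraries, 4 residual degrees of freedom, no replicate block), with adjusted p by Benjamini-Hochberg over 17976 genes and a threshold of 0.05. The SE is the size of the log2 fold change over the square root of F. Mean log2 CPM of the arms used a prior count of 2, and the plot of every gene by library none. The test was checked on simulated counts. Replicates differed by more than sampling noise (chi-square per degree of freedom 3.58 to 8.39). Alternatives were library size and RLE scaling, DESeq2 1.42.0, no filter, limma 3.58.1 on log2(FPKM + 1) and log2(FPKM + 0.1), the compared libraries alone, a replicate block, and leaving out each library.

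The members and gene lists were chosen with earlier results of these data known. All members are named; of every other list, up to 3 called genes with the lowest adjusted p in a comparison. Thy1, Lama1, Tubb3 and Tfap2c are named as the main part of a marker sum, chosen after their values were seen. Abcg1 was added for HSVTK cells with ganciclovir as the other sterol exporter, also after its values were seen. Results for 5 further sterol genes on the lists are not reported here. Exons of 11 members overlap a gene on the other strand in GENCODE vM21, and their counts may include its reads if strand was ignored.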

Additional observations from a re-analysis of the deposited data

Results flagged for a closer look

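The response to ganciclovir differed between HSVTK and Control cells for 28 of the 35 genes, by the edgeR test of the difference itself (HSVTK minus Control, log2, adjusted p under 0.05). Over all tested genes 25.6% were called in this comparison. In the mevalonate pathway the values were Hmgcs1 -0.32, Mvk -0.49, Pmvk -0.60, Mvd -0.77 and Fdps -0.63, and above 0 for Acat3 at 1.49. In the sterol steps they were Fdft1 -0.48, Sqle -0.69, Lss -0.95, Cyp51 -1.01, Tm7sf2 -0.61, Msmo1 -0.81, Nsdhl -0.90, Hsd17b7 -0.45 and Dhcr7 -1.51, and above 0 for Ebp at 0.42. Among the regulators they were Insig1 -1.44, Srebf1 -0.42, Srebf2 -1.04 and Stard4 -0.90. In the fatty acid arm they were Acaca -0.97, Acly -0.38, Acss2 -1.44, Scd1 -1.73, Scd2 -1.22, Fads1 -1.21, Fads2 -1.66 and Me1 -0.36. Of 15 other settings, the call was lost under 11 for Me1, 7 for Acat3, 6 for Hsd17b7 and 2 for Ebp. The libraries labelled HSVTK GANC have higher markers of the 2-cell-like state than those labelled HSVTK DMSO. The part of this in the differences was not tested, nor were the labels. With 2 libraries in each group no single library could be set apart as an outlier.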

How the results depend on the processing

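No called direction reversed under any setting run. Of 2764 gene values under other settings, 2586 kept their side of the threshold, 153 lost it and 25 gained it. The count of genes called in Control GANC against Control DMSO was 16; it was 6 with limma on log2(FPKM + 1) and 7 on log2(FPKM + 0.1), and the cause was not tested. Leaving out 1 library gave 10 to 16 there, with 10 without either Control DMSO library. It gave 22 to 27 for HSVTK GANC against HSVTK DMSO (27 with all), 22 to 28 for HSVTK DMSO against Control DMSO (26), 19 to 23 for HSVTK GANC against Control GANC (23) and 24 to 28 for the difference of responses (28); a lone library is assumed to vary like the other groups. Replicate numbers did not pair the libraries (correlations of deviations from -0.032 to 0.015). A replicate block gave counts of 27 for HSVTK with ganciclovir, 14 for Control with ganciclovir and 26 for HSVTK DMSO against Control DMSO. It gave 23 for HSVTK GANC against Control GANC and 28 for the difference. Calls kept under all settings were 21 of 27, 6 of 16, 21 of 26, 16 of 23 and 24 of 28 in that order. Scaling by library size turned the balance over all tested genes to 2758 higher and 2325 lower for HSVTK GANC against HSVTK DMSO (2391 and 2728 otherwise), and to 3233 and 2818 for HSVTK DMSO against Control DMSO (2957 and 3103). Counts of Acat3, at 24 to 70 per library, limit its precision.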

Other observations

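Outside synthesis, Cpt1a of fatty acid oxidation was lower in HSVTK GANC than in HSVTK DMSO (50.7 and 45.7 CPM, against 68.6 and 66.8 CPM) whereas Control GANC exceeded Control DMSO (36.0 and 40.2 CPM, against 28.7 and 30.1 CPM). The difference of its log2 responses was -0.87 ± 0.12 (edgeR adjusted p = 2.77e-06). Abca1 was lower in HSVTK DMSO than in Control DMSO, with 8.69 and 8.79 CPM against 23.5 and 24.2 CPM, a log2 fold change of -1.45 ± 0.11. Abcg1, another sterol exporter, was higher in the same comparison, with a log2 fold change of 0.86 ± 0.13.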
